A study of Homo sapiens with 12 samples.

Results

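The control siRNA libraries of H2023 and H460, 2 human non-small cell lung cancer lines, were compared with each other. Only libraries labelled as having received control siRNA were taken, so 4 of the 12 libraries of the series were used, 2 of each line. The A549 line was left out because its RNA was prepared by removing ribosomal RNA, whereas polyA RNA was selected in H2023 and H460. According to the labels H2023 is a lung adenocarcinoma line and H460 a large cell carcinoma line of the lung, and both carry a mutation of KEAP1. Both lines were grown in low-glucose DMEM with 10% fetal bovine serum and collected 48 h after siRNA transfection. The study's methods call the duplicate libraries of a line, numbered 0 and 1 in the labels, biological replicates. Each tumour type is thus represented by 1 established line, so a difference between the lines cannot be told apart from a difference between tumour types or between the 2 original tumours. The other 4 libraries of the same lines had received siRNA against NRF2, number 28 in library 0 and number 30 in library 1. They served mainly to see whether a difference recurred in RNA that the comparison had not used. They also entered an alternative fit of all 8 libraries and a test of whether the line difference changed with NRF2 siRNA.

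KEAP1 is the adaptor through which the CUL3 ubiquitin ligase marks NRF2 for degradation. When KEAP1 is lost, NRF2, the product of NFE2L2, accumulates in the nucleus, pairs with small MAF proteins and binds antioxidant response elements near genes of glutathione synthesis, quinone reduction, aldehyde and ketone reduction, drug export and NADPH supply. The study was concerned with how this activated factor drives further targets, among them the receptor NOTCH3, in lung cancers that carry such mutations. A comparison of the lines without NRF2 siRNA shows what they shared and what separated them at that starting point.

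Values are FPKM, fragment counts scaled to the length of the transcript and to the mapped fragments of the library, so that levels can be compared between genes. Whether both lines were scaled in 1 run is not given in the sources used here, and the number of reads per library is unknown. The FPKM sums were 650876 and 661345 in H2023 and 744456 and 708048 in H460. Between 13569 and 13606 genes reached 1 FPKM in the H2023 libraries and between 12732 and 12760 in the H460 libraries. On log2(FPKM + 1) values the correlation across genes was 0.983 between the H2023 libraries and 0.981 between the H460 libraries, against 0.821 to 0.835 between lines. Transcripts encoded by mitochondrial DNA took 11.97% and 18.1% of the sum in H2023 and 8.56% and 13.1% in H460. By the medians of the gene lists, the H460 libraries were furthest apart in genes linked to ATF4. EGR1 and DDIT3 are given as single examples only. All 29 tested genes of a list of serine, one-carbon and ATF4-linked genes were higher in H460 library 0 than in H460 library 1, with a median log2 difference of 1.01. In H2023 the same median was 0.08. EGR1, an immediate-early factor, was at 32.5 and 1.13 FPKM in H460 libraries 0 and 1, and DDIT3, a factor of the integrated stress response, was at 128 and 10.4 FPKM. Counts for the NRF2 system, cytokine, MAPK feedback and ATF4-linked genes are given also without H460 library 0.

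Nearly 1 in 2 genes differed between the lines. Of 14039 genes tested, 3404 were higher in H2023, 24.2% of those tested, and 3453 were higher in H460, 24.6%. A gene was tested if it reached 1 FPKM in at least 2 of the 4 libraries, and was called at an adjusted p under 0.05 in limma on log2(FPKM + 1). Log2 differences are H2023 minus H460 throughout. A difference of at least 2 on the log2 scale, a change of 4-fold or more, was found for 681 called genes in H2023, 4.85%, and for 401 in H460, 2.86%. In total 48.8% of genes were called, the share against which the count of each gene list is to be read, and 7.71% were called with a difference of at least 2. The called genes also split differently if libraries are scaled in another way. With the mitochondrial transcripts left out and the rest rescaled, 4282 genes were higher in H2023 and 2501 in H460, and the median of all tested genes moved from -0.03 to 0.16, a shift of 0.19. Of 248 genes chosen by rule for description 209 were called, and 199 of these kept direction and call under that scaling. With the same genes tested and H460 library 0 left out, 2748 and 2425 genes were called. Without H2023 library 0 the counts fell to 1259 and 722, and without H2023 library 1 to 1299 and 732, with the spread then taken from the H460 libraries alone. Ranges given for a list over the omissions of 1 library use the same genes as the full comparison. With the filter applied anew to the 3 libraries left, genes found only in the line with 1 library left drop out of the test. A list's count and median therefore describe the members that passed the filter, and some medians changed sign in that way. That of collagen and matrix genes went from 1.22 to -0.07 without H2023 library 0, and that of matrix proteases and inhibitors from 0.49 to -0.58 and -1.31 without either H2023 library. The median of imprinted genes went from 0.28 to -0.51 and -0.42 without either H2023 library, and that of developmental transcription factors from -0.47 to 0.37 without H460 library 1.

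Most differences kept their sign with NRF2 siRNA, and fewer were called again. In those 4 libraries 10.7% of 14454 tested genes were higher in H2023 and 8.66% in H460, 19.4% in all, and with a difference of at least 2 the shares were 4.14%, 3.1% and 7.24%. Of the 3404 genes higher in H2023, 3244 could be tested in the NRF2 siRNA libraries, where 2945, or 90.8%, had the same sign and 1203 were called again. Of the 3453 genes higher in H460, 3330 could be tested, 2794 of them, 83.9%, had the same sign and 899 were called again. Among genes with a log2 difference of at least 2, the shares with the same sign were 99.1% and 99.2%. Over all 13555 genes tested in both sets, called or not, 74.4% had the same sign. A call in the opposite direction was made for 12 genes.

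The largest differences of protein-coding genes in H2023 were those of a peroxidase, a vitamin D enzyme and a transglutaminase. GPX2, a glutathione peroxidase of epithelia (chr14:65405870-65409464 in GRCh37), was at 712 and 469 FPKM in H2023 against 0.344 and 0.323 FPKM in H460, a log2 difference of 8.76 with a standard error of 0.22 (limma adjusted p = 2.58e-05). CYP24A1, which degrades vitamin D, followed with 300.0 and 324 FPKM in H2023 against 0.258 and 0.2399 FPKM in H460. TGM2, a protein cross-linking transglutaminase, was at 325 and 424 FPKM in H2023 against 0.879 and 0.439 FPKM in H460. Next came S100A9, a calcium-binding protein of myeloid and inflamed epithelial cells, at 359 and 187 FPKM in H2023 against 0.1505 and 0.151 FPKM in H460. FGA and FGB encode fibrinogen chains, which are normally made by the liver. FGB was at 414 and 194 FPKM in H2023 against 0.569 and 0.193 FPKM in H460. FGA was at 292 and 134 FPKM in H2023 and listed at 0 in both H460 libraries. NNMT, which methylates nicotinamide, was at 241 and 279 FPKM in H2023 against 0.595 and 0.229 FPKM in H460. RARRES1, SPINT2, CDH17 and MAGEA4 followed, with log2 differences from 6.59 to 7.36. SPINT2 is an inhibitor of serine proteases of epithelial surfaces and CDH17 is the cadherin of intestine and liver.

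In H460 the largest difference of a protein-coding gene was that of TBXT, which encodes brachyury, the T-box factor of mesoderm and notochord (chr6:166571144-166582188). TBXT was at 854 and 693 FPKM in H460 and at 0.154 and 0.0553 FPKM in H2023, a log2 difference of -9.45 (SE 0.16, limma adjusted p = 7.34e-06). CDH11, a mesenchymal cadherin, was at 751 and 747 FPKM in H460 and 0.163 and 0.2902 FPKM in H2023. EPB41L3, a membrane skeleton protein, was at 694 and 368 FPKM against 0.646 and 0.445 FPKM. SERPINB2, the plasminogen activator inhibitor type 2, was at 283 and 298 FPKM against 0.0663 and 0.0005300 FPKM. IL6 was at 502 and 142 FPKM against 0.265 and 0.888 FPKM, so the 2 H460 libraries differed strongly in its level although neither came near H2023. COL8A1, QPCT, SLC38A5, RAB34, SNURF and DLG2 had log2 differences from -7.22 to -5.97. The 24 genes were chosen among those whose groups do not overlap, which held for 76.7% of all tested genes. All 24 were also called in the same direction in the NRF2 siRNA libraries. The difference of GPX2 was then smaller, 3.89 against 8.76.

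**Figure D1:**
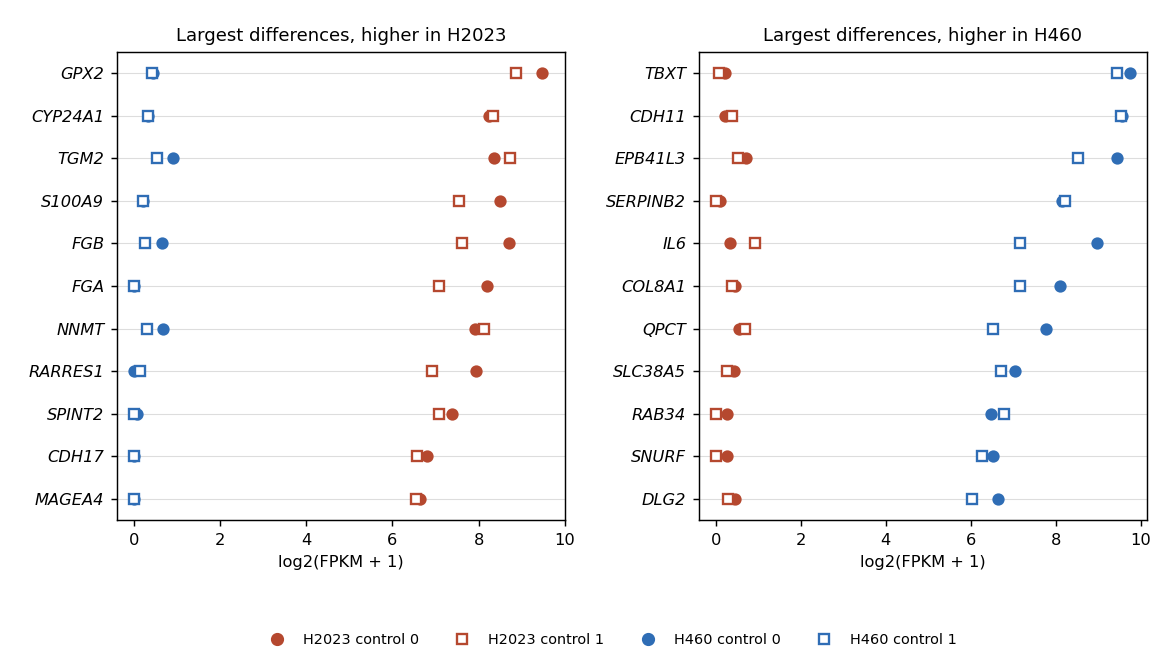
Level of 11 of the 12 protein-coding genes with the largest log2 difference in each direction, as log2(FPKM + 1), with 1 point per control siRNA library (circles library 0, squares library 1). The libraries of the higher line lie far from those of the other line for every gene, and IL6 shows the widest spread between the H460 libraries.

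NFE2L2, the gene of NRF2, was close in the 2 lines. It was at 120.0 and 118 FPKM in H2023 against 144 and 99.5 FPKM in H460, with a log2 difference of -0.01 and a 95% interval from -0.49 to 0.47. KEAP1 was at 106 and 93.3 FPKM in H2023 against 91.6 and 90.4 FPKM in H460, a difference of 0.12 (95% interval -0.20 to 0.45), and MAFK, a small MAF partner of NRF2, at 61.9 and 67.5 FPKM in H2023 against 103 and 41.5 FPKM in H460. The H460 libraries of MAFK lay on either side of those of H2023, so its difference was -0.02 with all libraries, 0.63 without H460 library 0 and -0.67 without H460 library 1, the last 2 past the threshold. Among 23 genes of the NRF2 system and its partners, 4 were higher in H2023 and 2 in H460, a share of 26.1% where 48.8% of all genes were called. The median of the list was -0.01, and it turned to 0.21 with mitochondrial transcripts left out. BACH1, the repressor that competes with NRF2 for its sites, was higher in H2023 (19.97 and 19.5 FPKM in H2023 against 7.84 and 7.33 FPKM in H460, log2 difference 1.27, limma adjusted p = 0.0018). So were the leucine zipper factors CEBPD (difference 1.66), FOSL2 (1.01) and CEBPB (0.74), the last at 128 and 136 FPKM in H2023 against 92.7 and 66.95 FPKM in H460. FOSL1 (-0.92) and SQSTM1 (-0.65), an autophagy receptor that binds KEAP1, were higher in H460. Without H460 library 0 the counts were 7 and 1, and 17 of the 23 genes were higher in that library than in library 1. Leaving out each library in turn gave 1 to 7 genes higher in H2023 and 0 to 5 in H460. In the NRF2 siRNA libraries only 3 of the 6 called genes had the same sign.

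Several canonical targets of NRF2 were abundant in both lines, some with and some without a difference. Of 40 tested, 11 were higher in H2023 and 9 in H460, a share close to that of all genes. NQO1, the quinone reductase, was at 1059.6 and 876 FPKM in H2023 against 979.5 and 1065 FPKM in H460, a difference of -0.08 with a 95% interval from -0.53 to 0.36. TXNRD1, thioredoxin reductase, was at 699 and 698 FPKM in H2023 against 762 and 761 FPKM in H460 (difference -0.12, interval -0.49 to 0.25). GCLM, the modifier subunit of glutamate-cysteine ligase, was at 90.1 and 76.4 FPKM in H2023 against 60.1 and 70.2 FPKM in H460 (difference 0.35, interval -0.03 to 0.72). None of these 3 passed the threshold. The catalytic subunit GCLC was higher in H2023, at 211 and 192 FPKM in H2023 against 155 and 101 FPKM in H460 (difference 0.69, limma adjusted p = 0.0452). SLC7A11, the cystine transporter, was higher in H460, at 27.7 and 26.4 FPKM in H2023 against 51.99 and 53.97 FPKM in H460 (difference -0.95). NR0B1, a nuclear receptor that lacks a DNA-binding domain, was higher in H460 as well, at 53.4 and 47.2 FPKM in H2023 against 80.01 and 87.4 FPKM in H460. With the mitochondrial transcripts left out, the list had 18 genes higher in H2023 and 8 in H460.

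After GPX2 the larger differences among targets were those of enzymes of fatty acid and carbonyl metabolism. AKR1C2, an aldo-keto reductase, was at 2093 and 1794 FPKM in H2023 against 322 and 355 FPKM in H460, 5.75 times as high in H2023, and AKR1B10 at 2219.5 and 1535 FPKM in H2023 against 744 and 665 FPKM in H460. Reads of AKR1C1, AKR1C2 and AKR1C3, and of AKR1B10 and AKR1B15, can be shared between near-identical transcripts, so the split within each group is uncertain. CYP4F3, a fatty acid hydroxylase, was at 45.5 and 35.8 FPKM in H2023 against 1.74 and 1.77 FPKM in H460. ALDH3A1, an aldehyde dehydrogenase, went the other way, at 164 and 223 FPKM in H2023 against 861 and 655 FPKM in H460 (difference -1.97). GSTM3, a glutathione transferase (-1.59), and TRIM16 (-1.08) were also higher in H460, whereas PGD, an enzyme of the pentose phosphate route, was higher in H2023 (0.91). TRIM16 and TRIM16L are close copies of each other. When single libraries were left out, the counts were 4 to 8 in H2023 and 1 to 9 in H460.

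**Figure D2:**
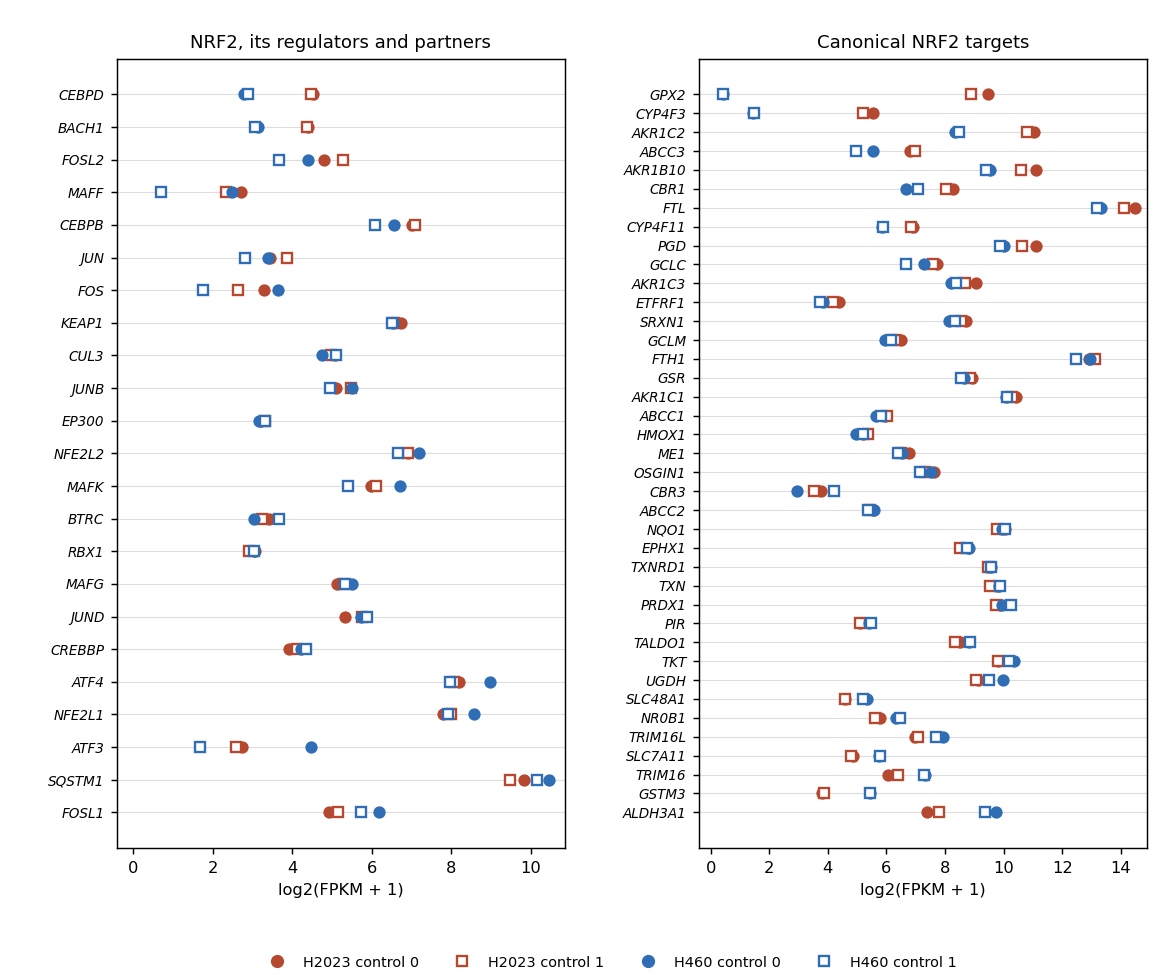
Level, as log2(FPKM + 1), of 23 genes of the NRF2 system (left) and of 39 of the 40 canonical NRF2 targets (right) in each control siRNA library, ordered by the log2 difference. NFE2L2, KEAP1 and NQO1 have overlapping or adjoining points, GPX2 and CYP4F3 head the targets higher in H2023 and ALDH3A1 is lowest in H2023 relative to H460.

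The letters before the starts of target genes were searched for the element itself. The core of the antioxidant response element, TGACNNNGC, was searched on both strands of RefSeq promoters (250 bases before to 50 after the start, GRCh38.p14). It overlaps the AP-1 site TGACTCA where the bases after TGAC are TCA. Of 41 listed targets, 28 had an entry and 8 of these, 28.6%, held a match, against 13.6% of all 27305 promoters and 15.1% of those of tested protein-coding genes. GPX2, which differed most, and GCLM, TXNRD1 and CBR1 are shown because they include genes with and without a called difference. Each line gives up to 60 bases on either side of the match, none beyond the gene's start, 5′ to 3′ in the gene's own direction, with the match in capitals.
GPX2, chr14:64942799-64942927, minus strand: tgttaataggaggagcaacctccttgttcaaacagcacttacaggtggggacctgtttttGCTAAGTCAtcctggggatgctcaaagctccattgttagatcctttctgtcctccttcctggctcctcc
CBR1, chr21:36069805-36069933, plus strand: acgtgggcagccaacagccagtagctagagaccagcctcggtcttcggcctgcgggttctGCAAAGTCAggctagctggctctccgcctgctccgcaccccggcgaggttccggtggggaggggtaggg
TXNRD1, chr12:104215620-104215748, plus strand: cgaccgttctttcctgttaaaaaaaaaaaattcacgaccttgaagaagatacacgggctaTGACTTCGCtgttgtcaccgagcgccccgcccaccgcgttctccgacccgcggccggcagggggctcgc
GCLM, chr1:93909431-93909524, minus strand: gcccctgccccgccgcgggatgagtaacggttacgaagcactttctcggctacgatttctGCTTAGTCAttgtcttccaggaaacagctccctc
The match begins 122 bases before the start of GPX2, 159 before that of CBR1, 99 before that of TXNRD1 and 34 before that of GCLM. TXNRD1 held a second match, not shown, that begins 8 bases before its start. CBR1, a carbonyl reductase, was higher in H2023, at 306 and 259 FPKM in H2023 against 101 and 135 FPKM in H460 (difference 1.26). A match was thus present both beside genes that differed (GPX2 and CBR1) and beside genes that did not pass the threshold (TXNRD1 and GCLM). A match describes letters in this window only.

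A list of 30 tested genes was taken from those that the study names as effectors of NRF2. They were chosen partly on these samples, so their levels in both lines are no independent evidence. Among them 4 were higher in H2023 and 9 in H460, or 43.3%. The balance turned to 8 and 2 with mitochondrial transcripts left out, and it was 5 and 0 between the NRF2 siRNA libraries. NOTCH3 was at 134 and 116 FPKM in H2023 against 83.9 and 123 FPKM in H460 (difference 0.29, 95% interval -0.21 to 0.80), and H460 library 1 lay within the H2023 values. HMGA1, a chromatin architectural protein, was at 532 and 574 FPKM in H2023 against 609 and 524 FPKM in H460. PFN2, a profilin, was at 179 and 185 FPKM in H2023 against 172 and 186 FPKM in H460. F2RL2, a thrombin receptor, was at 58.8 and 50.3 FPKM in H2023 against 41.6 and 39.6 FPKM in H460 and was not called (limma adjusted p = 0.0529). C1S, a complement protease, was the exception in size, at 244 and 253 FPKM in H2023 against 20.4 and 16.9 FPKM in H460 (difference 3.67). C5AR1, the receptor for complement fragment C5a (1.67), HGD (1.40) and BEND6 (1.24) were the others higher in H2023. The 9 genes higher in H460 had differences between -0.95 (FAM20B) and -0.40 (ELAVL1). Over the 4 omissions of 1 library, the list had 1 to 5 genes higher in H2023 and 0 to 5 in H460.

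Of 27 tested genes of the NOTCH pathway 10 were higher in H2023 and 4 in H460, or 51.9% where 48.8% of all genes were called. The ligands JAG1 and JAG2 and some response genes were among those higher in H2023, whereas NOTCH1, NOTCH2 and NOTCH3 were not called. NOTCH signalling begins when a ligand on one cell lets γ-secretase release the intracellular part of the receptor on its neighbour, which then works with RBPJ. NOTCH1 was at 8.803 and 9.82 FPKM in H2023 against 5.14 and 7.798 FPKM in H460. NOTCH2 was at 14.6 and 17.9 FPKM in H2023 against 9.54 and 13.4 FPKM in H460, and neither was called. The ligand JAG1 was at 54.4 and 49.4 FPKM in H2023 against 17.6 and 7.91 FPKM in H460 (difference 2.04, limma adjusted p = 0.00484). JAG2 was at 13.3 and 10.01 FPKM in H2023 against 2.47 and 4.69 FPKM in H460. Of the response genes, HES1 was at 14.3 and 11.3 FPKM in H2023 against 2.69 and 3.82 FPKM in H460. HES4 was at 9.38 and 6.98 FPKM in H2023 against 1.65 and 2.76 FPKM in H460. NRARP was at 8.03 and 4.96 FPKM in H2023 against 0.781 and 0.953 FPKM in H460, and all 3 were higher in both H2023 libraries than in either H460 library. HEY1 (1.54 and 3.12 FPKM in H2023 against 2.02 and 2.35 FPKM in H460) was not called. All 14 called genes had the same sign with NRF2 siRNA, where 2 genes of the list were called higher in H2023 and 3 in H460. The 4 genes higher in H460 were MAML2, RBPJ, MAML1 and APH1A, which encode coactivators, the DNA-binding partner and a γ-secretase subunit. With 1 library left out at a time, 4 to 10 genes of the list were higher in H2023 and 1 to 4 in H460.

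The defining markers of lung adenocarcinoma were at or near 0 in both lines, also in H2023, which is labelled as such. NKX2-1, the lineage factor of distal lung, reached at most 0.0988 FPKM in any of the 4 libraries, NAPSA 0.617, SFTPB 0.0869 and SFTPC 0.295, and SFTPA1 was listed at 0 throughout. KRT7 and MUC1, which are less specific, were higher in H2023, KRT7 at 838 and 682 FPKM in H2023 against 11.99 and 10.3 FPKM in H460. MUC1 was at 28.9 and 20.8 FPKM in H2023 against 2.503 and 1.76 FPKM in H460. Of 26 matched lung lineage genes, 12 could be tested, of which 7 were higher in H2023 and 2 in H460. Filtering anew without an H2023 library left 8, of which 3 were higher in H2023 and 2 in H460. ELF3, an epithelial ETS factor, was at 139 and 107 FPKM in H2023 against 0.727 and 0.286 FPKM in H460. FOXA2, a factor of endoderm, was at 9.22 and 7.77 FPKM in H2023 and listed at 0 in H460, while its relative FOXA1 was higher in H460, at 15.3 and 9.601 FPKM in H2023 against 44.6 and 49.6 FPKM in H460. HOPX was at 17.2 and 13.6 FPKM in H460 and 0.0682 and 0 FPKM in H2023. Of 18 squamous and basal markers 2 could be tested. KRT15 was at 1.66 and 3.02 FPKM in H2023 against 0.778 and 0.346 FPKM in H460. SERPINB5 was higher in H460, at 0.565 and 0.93 FPKM in H2023 against 20.1 and 29.02 FPKM in H460. TP63, KRT5 and SOX2 reached at most 1.08 FPKM in any library. The neuroendocrine factors NEUROD1 and INSM1 were under the filter, although NCAM1, an adhesion molecule of neural cells, was at 40.9 and 52.6 FPKM in H2023 against 4.02 and 2.78 FPKM in H460. CHGA, a granule protein, was at 4.46 and 3.37 FPKM in H2023 against 14.5 and 21.1 FPKM in H460. Of 5 tested mucin-related genes 4 were higher in H2023. Without H460 library 0 they were 2 with the genes of the full comparison and 4 with the filter applied anew. Filtered anew without an H2023 library, 2 were left and 1 was called. Markers of leukocytes, endothelium and fibroblasts were near 0, with PTPRC, CD3E, VWF, CDH5, COL1A2 and DCN at most 0.114 FPKM. CD14, a marker of monocytes, was at 0.6800 and 0.788 FPKM in H2023 against 1.77 and 5.49 FPKM in H460. COL3A1, a fibrillar collagen, was at 0.163 and 0.463 FPKM in H2023 against 3.57 and 3.43 FPKM in H460. Of 9 such markers 3 could be tested and 2 were higher in H460, 1 without either H2023 library.

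Of 30 tested genes of junctions, keratins and epithelial regulators, 19 were higher in H2023 and 5 in H460, or 80.0%. Many of them passed the filter only through H2023. With the filter applied anew without an H2023 library, 20 genes were left, of which 6 or 7 were higher in H2023 and 4 in H460, and the median of 1.36 went to 0.05 or 0.02. CDH1, E-cadherin, was at 12.6 and 8.05 FPKM in H2023 against 0.149 and 0.525 FPKM in H460 (difference 3.07, limma adjusted p = 6.46e-04). EPCAM was at 11.1 and 6.23 FPKM in H2023 against 1.09 and 0.222 FPKM in H460, both modest levels. Some keratins of simple epithelia were abundant in both lines, with KRT8 at 1474 and 1303 FPKM in H2023 against 553 and 673 FPKM in H460. KRT18 was at 878 and 712 FPKM in H2023 against 299.6 and 298 FPKM in H460. KRT19 went the other way, at 171 and 99.6 FPKM in H2023 against 288 and 364 FPKM in H460. KRT81, a hair keratin that shares sequence with KRT86, was at 574 and 638 FPKM in H2023 against 7.76 and 10.6 FPKM in H460. LSR, a tricellular junction receptor, was at 46.9 and 27.6 FPKM in H2023 against 1.096 and 1.26 FPKM in H460. SPINT2 was at 167 and 134 FPKM in H2023 against 0.0449 and 0.00152 FPKM in H460. All 24 called genes had the same sign with NRF2 siRNA. Leaving out each library in turn gave 13 to 17 genes higher in H2023 and 1 to 4 in H460.

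Mesenchymal genes were called in both directions. Of 23 tested, 6 were higher in H2023 and 7 in H460, and over omissions of 1 library 3 to 4 and 4 to 8. VIM, vimentin, was at 347 and 495 FPKM in H2023 against 1095 and 1198 FPKM in H460. FN1, fibronectin, was at 57.9 and 44.6 FPKM in H2023 against 501 and 615 FPKM in H460. ZEB2, a repressor of E-cadherin, was at 23.3 and 19.1 FPKM in H460 and 0.0444 and 0.0873 FPKM in H2023. ZEB1, its relative, was not called (10.3 and 16.2 FPKM in H2023 against 17.1 and 15.01 FPKM in H460). CDH2, N-cadherin, was higher in H2023, at 7.48 and 12.03 FPKM in H2023 against 0.895 and 1.39 FPKM in H460, as was AXL, a receptor tyrosine kinase often listed with mesenchymal genes, at 22.8 and 27.1 FPKM in H2023 against 2.76 and 2.96 FPKM in H460. H2023 thus held more of CDH1 and of CDH2, and H460 held little of either but much of CDH11.

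Genes of a list of developmental transcription factors were often called. Of 78 matched, 25 stayed under 1 FPKM in all 4 libraries and 46 were tested. Of these, 12 were higher in H2023 and 21 in H460, or 71.7%. A gene that reached the filter only through the line in which it is high had to differ. With a mean of at least 5 FPKM required, 20 were left. Of those, 7 were higher in H2023 and 8 in H460, with a median of 0.11. When single libraries were left out, the counts were 4 to 12 in H2023 and 8 to 19 in H460. IRX2 was at 23.6 and 29.4 FPKM in H460 and 0.04898 and 0.0254 FPKM in H2023, and MSX2, a homeobox factor of limb and skull, at 11.7 and 23.2 FPKM against 0.493 and 0.272 FPKM. In H2023 ZIC1, a zinc finger factor of dorsal neural tissue, was at 12.9 and 14.7 FPKM and listed at 0 in H460. IGF2BP1, which encodes an RNA-binding protein of fetal tissue and not a transcription factor, was at 37.5 FPKM in both H2023 libraries against 0.398 and 0.2804 FPKM in H460. Of 22 HOX genes tested, 3 were higher in H2023 and 6 in H460, and over omissions 2 to 4 and 0 to 4, with HOXA3 (-2.47) and HOXD9 (1.83) at the extremes.

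**Figure D3:**
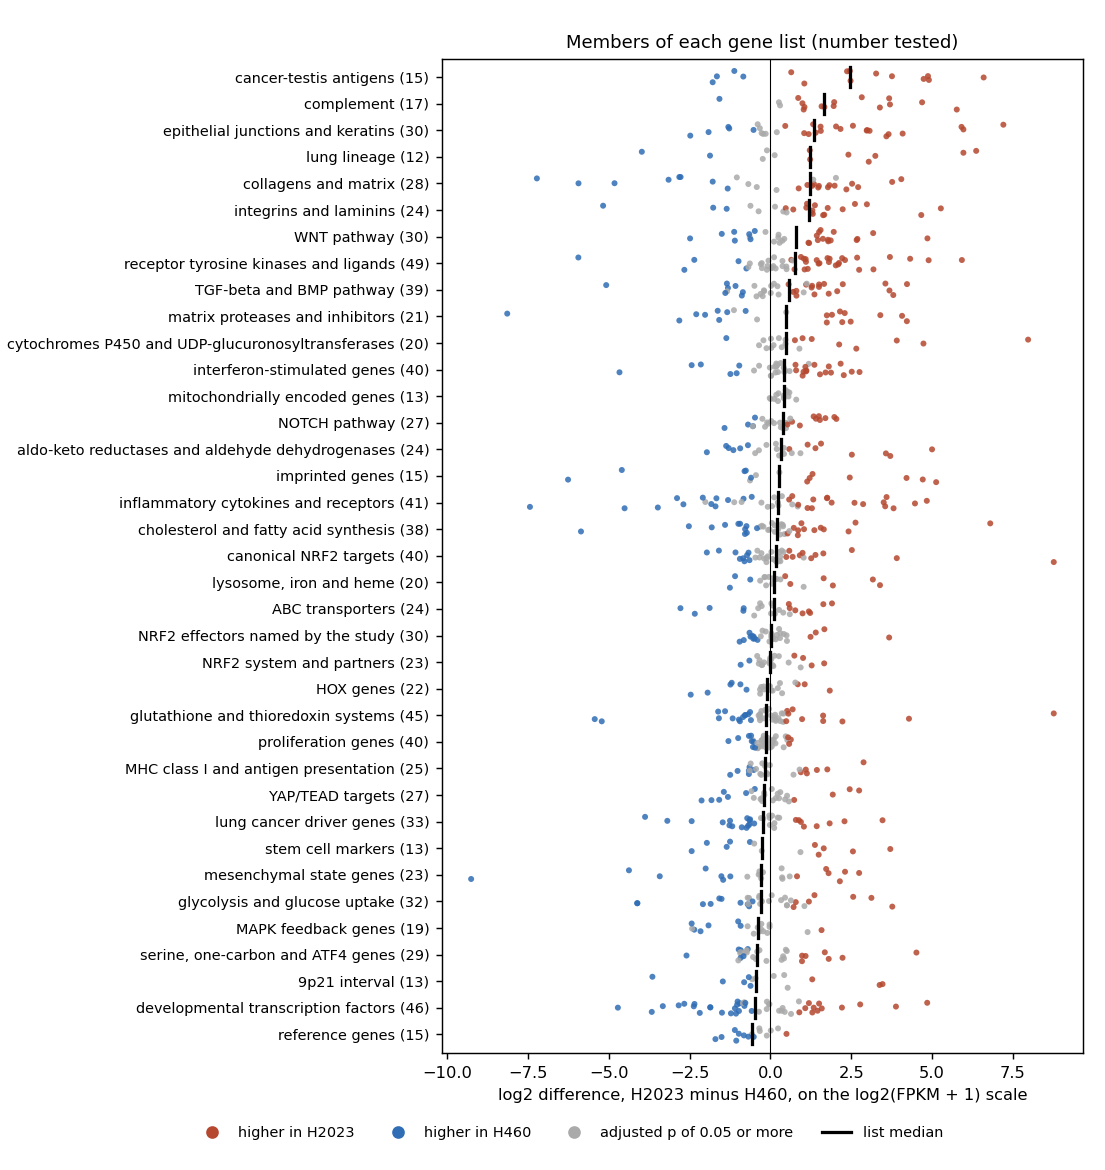
Log2 difference, H2023 minus H460, of each tested member of gene lists with at least 10 tested members, coloured by call, with a bar at each list's median and the number tested in brackets. Most lists hold called members in both directions. The medians depend on which members pass the filter, and those of cancer-testis and epithelial genes, above 1.3 here, were -1.16 and 0.05 with the filter applied anew without H2023 library 0.

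Adhesion and matrix genes were called in both directions. Of 24 tested integrins, laminins and partners, 16 were higher in H2023 and 3 in H460, or 79.2%. Of the 21 that passed the filter applied anew without an H2023 library, 10 or 11 were higher in H2023 and 3 in H460. Between the NRF2 siRNA libraries 5 were called in each direction, and 16 of the 19 called genes kept their sign. Over the 4 omissions of 1 library, the list had 8 to 15 genes higher in H2023 and 3 to 4 in H460. ITGA3, an integrin chain that binds laminin 332, was at 154 and 206 FPKM in H2023 against 4.25 and 3.12 FPKM in H460. ITGB4, the chain of hemidesmosomes, was at 41.2 and 53.3 FPKM in H2023 against 0.958 and 0.822 FPKM in H460. The laminin 332 chains were higher in the same line, LAMA3 at 20.5 and 21.1 FPKM in H2023 against 1.63 and 1.89 FPKM in H460. LAMB3 was at 24.9 and 26.6 FPKM in H2023 against 4.94 and 4.46 FPKM in H460. ITGB1 was at 975 and 1181 FPKM in H2023 against 408 and 294 FPKM in H460. CD44, a hyaluronan receptor, was at 306 and 363 FPKM in H2023 against 122 and 134 FPKM in H460. LAMA1, the embryonic laminin chain, was at 46.98 and 26.8 FPKM in H460 and 0.00618 and 0.0137 FPKM in H2023. Of 28 collagen and matrix genes 14 were higher in H2023 and 8 in H460, and over omissions 7 to 13 and 7 to 8. With a mean of at least 5 FPKM required, 18 of this list were left, 9 higher in H2023 and 7 in H460, with a median of 0.09. COL8A1 was at 0.355 and 0.3100 FPKM in H2023 against 276 and 142 FPKM in H460. COL4A6 was at 0.171 and 0.659 FPKM in H2023 against 43.5 and 33.96 FPKM in H460. THBS1, thrombospondin, was at 19.8 and 34.8 FPKM in H2023 against 0.915 and 0.423 FPKM in H460. Some matrix genes were far apart in the 2 H2023 libraries, for example COL5A1 at 1.296 and 10.1 FPKM and MMP2 at 2.28 and 14.2 FPKM. Among 21 proteases and inhibitors 10 were higher in H2023 and 8 in H460, and over omissions 8 to 9 and 3 to 6, with 7 and 9 between the NRF2 siRNA libraries. With a mean of at least 5 FPKM required, 15 of these were left, 6 higher in each line, with a median of -0.41. The urokinase gene PLAU was at 41.8 and 40.4 FPKM in H2023 against 3.42 and 2.61 FPKM in H460. MMP7, matrilysin, was at 16.8 and 18.00 FPKM in H2023 against 0.202 and 0 FPKM in H460. TIMP3, an inhibitor, was at 20.4 and 16.2 FPKM in H2023 against 0.0158 and 0.0441 FPKM in H460.

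Receptor tyrosine kinases and their ligands were higher in H2023 for 26 of 49 tested genes and higher in H460 for 5. Of the 39 that passed the filter applied anew without an H2023 library, 13 were higher in H2023 and 4 in H460. With 1 library left out at a time, 17 to 26 genes of the list were higher in H2023 and 2 to 6 in H460. HGF, the ligand of MET, was at 60.8 and 60.2 FPKM in H2023 and at 0 and 0.0321 FPKM in H460, while MET was at 77.7 and 88.1 FPKM in H2023 against 39.7 and 40.02 FPKM in H460. H2023 thus carried both the ligand and more of the receptor transcript. EGFR was at 23.2 and 33.2 FPKM in H2023 against 7.37 and 6.81 FPKM in H460 (difference 1.83, limma adjusted p = 0.00144). ERBB3 was at 32.96 and 15.9 FPKM in H2023 against 0.312 and 0.1002 FPKM in H460. IGFBP4, which binds insulin-like growth factors, was at 398 and 578 FPKM in H2023 against 16.4 and 14.03 FPKM in H460. IGF1R was not called (47.6 and 61.8 FPKM in H2023 against 62.1 and 45.7 FPKM in H460). The EGFR ligand EPGN had the largest difference in the other direction, at 54.5 and 71.1 FPKM in H460 and 0 and 0.0601 FPKM in H2023.

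Complement encodes proteins of innate immunity whose soluble forms come mainly from the liver. Of 17 tested complement genes 14 were higher in H2023 and 1 in H460, or 88.2%, with a median difference of 1.67. With the filter applied anew without an H2023 library, 11 were left, of which 5 or 7 were higher in H2023 and 1 in H460. C3, the central component, was at 489 and 423 FPKM in H2023 against 15.2 and 3.34 FPKM in H460 (difference 5.76, limma adjusted p = 8.57e-04). C5 was at 40.7 and 22.6 FPKM in H2023 against 0.142 and 0.296 FPKM in H460. CFI, the protease that inactivates C3b, was at 22.6 and 6.12 FPKM in H2023 and listed at 0 in H460. Of the membrane regulators CD59 was higher in H2023 (62.5 and 77.3 FPKM in H2023 against 21.2 and 24.00 FPKM in H460), and CD55, the only gene of the list higher in H460, was at 98.98 and 74.3 FPKM in H2023 against 338 and 197 FPKM in H460. Leaving out each library in turn gave 10 to 13 genes higher in H2023 and 0 to 1 in H460.

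Cytokine genes were called in both directions. Of 41 inflammatory cytokines and receptors 17 were higher in H2023 and 12 in H460. In H460 IL6, CXCL8 and CXCL1 led, with CXCL8 at 8.73 and 15.7 FPKM in H2023 against 631 and 133 FPKM in H460. CXCL1 was at 48.2 and 56.8 FPKM in H2023 against 723 and 489.9 FPKM in H460. The level of CXCL8 in H460 library 0 was several times that in library 1, and 30 of the 41 genes were higher in library 0. In H2023 CCL2, a monocyte attractant, was at 17.5 and 25.6 FPKM and listed at 0 in H460, and ICAM1, a leukocyte adhesion molecule, was at 166 and 149.9 FPKM in H2023 against 8.596 and 2.23 FPKM in H460. Without H460 library 0 the counts were 20 and 11, and without H460 library 1 they were 14 and 17. When single libraries were left out, the counts were 7 to 20 in H2023 and 2 to 17 in H460.

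Of 40 interferon-stimulated genes 16 were higher in H2023 and 6 in H460, and over omissions of 1 library 5 to 12 and 3 to 6. Calls made up 55.0% of the list, where 48.8% of all genes were called. Between the NRF2 siRNA libraries 2 and 5 were called, although 21 of the 22 called genes kept their sign. GBP2 was at 9.995 and 9.13 FPKM in H2023 against 0.513 and 0.617 FPKM in H460. ISG15 was at 9.74 and 20.6 FPKM in H2023 against 2.31 and 2.45 FPKM in H460. LGALS3BP, a secreted lectin-binding protein, was at 16.8 and 9.94 FPKM in H2023 against 362 and 346 FPKM in H460. Genes of HLA class I molecules were called in both directions. B2M, the light chain of class I molecules, was at 596 and 611 FPKM in H2023 against 929 and 804 FPKM in H460, higher in H460. HLA-C was higher in H2023, at 168 and 196 FPKM in H2023 against 54.9 and 51.3 FPKM in H460. HLA-B was not called (25.7 and 46.04 FPKM in H2023 against 20.8 and 20.4 FPKM in H460). FPKM of HLA genes depend on how well each line's alleles match the reference, which was not tested. ERAP2, a peptide-trimming protease, was at 12.9 and 13.6 FPKM in H2023 against 0.956 and 0.919 FPKM in H460. Of 25 antigen presentation genes 6 were higher in each line, and over omissions of 1 library 2 to 6 in H2023 and 0 to 5 in H460. Calls made up 48.0% of these genes, where 48.8% of all genes were called. The counts were 8 and 4 with mitochondrial transcripts left out and 2 and 4 between the NRF2 siRNA libraries. Of the class II list only HLA-DMA and HLA-DMB could be tested, both higher in H2023.

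Transcripts of some enzymes of redox defence were under 1 FPKM in 1 of the lines. Of 45 tested glutathione and thioredoxin genes 10 were higher in H2023 and 14 in H460, or 53.3% where 48.8% of all genes were called. Their median of -0.12 turned to 0.09 with mitochondrial transcripts left out. The counts were then 13 and 10, and omissions of 1 library gave 5 to 9 and 4 to 14. CAT, catalase (chr11:34460481-34493607), was at 19.5 and 17.5 FPKM in H2023 and at 0.00203 and 0 FPKM in H460. GPX4, which reduces lipid peroxides, was at 340.4 and 279 FPKM in H2023 against 102 and 96.01 FPKM in H460. In the other direction GSTM1, a glutathione transferase, was at 45.4 and 52.7 FPKM in H460 and 0.3301 and 0 FPKM in H2023, and GPX3, the secreted peroxidase, at 49.97 and 59.1 FPKM against 0.3997 and 0.582 FPKM. GSTM genes are close copies of each other. GSTP1 (423 and 356 FPKM in H2023 against 359.7 and 386 FPKM in H460) and GSTT1 (11.2 and 11.1 FPKM in H2023 against 15.3 and 14.1 FPKM in H460) were not called. The peroxidase genes therefore differed in opposite directions, GPX2 and GPX4 higher in H2023 and GPX3 higher in H460.

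Aldehyde dehydrogenases were called in both directions. Of 24 tested reductases and dehydrogenases of this kind 8 were higher in H2023 and 6 in H460, and over omissions of 1 library 5 to 8 and 0 to 6. ALDH1A1, which makes retinoic acid and is used as a stem cell marker, was at 699.9 and 545 FPKM in H2023 against 38.1 and 56.5 FPKM in H460 (difference 3.71, limma adjusted p = 2.01e-04). ALDH2, the mitochondrial acetaldehyde dehydrogenase, was at 102 and 82.3 FPKM in H2023 against 7.34 and 6.31 FPKM in H460. The genes higher in H460 were ALDH3A1, ALDH1B1, ALDH5A1, ALDH7A1, ALDH9A1 and ALDH16A1, with differences from -1.97 to -0.70. Of 20 tested genes of cytochromes P450 and related conjugating enzymes 8 were higher in H2023 and 1 in H460, or 45.0%. Filtering anew without an H2023 library left 17, of which 5 or 4 were higher in H2023 and 1 in H460, and between the NRF2 siRNA libraries 3 and 2 were called. After CYP24A1 the largest was CYP2S1, at 44.99 and 47.7 FPKM in H2023 against 1.08 and 0.525 FPKM in H460, followed by CYP4F3 and CYP26B1, a retinoic acid hydroxylase, at 8.02 and 5.53 FPKM in H2023 against 0.274 and 0.166 FPKM in H460. CYP1B1 was not called (172 and 311 FPKM in H2023 against 104 and 147 FPKM in H460).

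Lipid and sugar metabolism differed in single steps. In cholesterol and fatty acid synthesis 12 of 38 genes were higher in H2023 and 11 in H460, and over omissions of 1 library 3 to 11 and 1 to 10. EBP, the sterol isomerase (chrX:48380187-48387104), was at 0.539 and 0.789 FPKM in H2023 and 91.5 and 99.4 FPKM in H460, a difference of -5.86 (limma adjusted p = 3.48e-05). Another step went the other way, with HMGCS1 at 85.4 and 61.6 FPKM in H2023 against 17.9 and 28.1 FPKM in H460. STARD4, a sterol carrier, was at 6.07 and 4.45 FPKM in H2023 against 45.9 and 26.2 FPKM in H460. FASN, fatty acid synthase, was at 115 and 103 FPKM in H2023 against 163 and 216 FPKM in H460, and both were higher in H460. In glycolysis 7 of 32 genes were higher in H2023 and 10 in H460, and over omissions 2 to 8 and 1 to 11. Calls made up 53.1% of the glycolysis genes and 60.5% of the cholesterol and fatty acid genes, where 48.8% of all genes were called. With mitochondrial transcripts left out the counts were 12 and 8 in glycolysis and 17 and 8 in cholesterol and fatty acid synthesis. The hexokinase HK2 was at 37.8 and 18.9 FPKM in H460 and 0.569 and 0.644 FPKM in H2023, while HKDC1, another hexokinase-like gene, was at 57.6 and 49.8 FPKM in H2023 and 4.88 and 1.73 FPKM in H460. The glucose transporter SLC2A3 was at 1.14 and 3.03 FPKM in H2023 against 96.8 and 25.8 FPKM in H460. SLC2A1 was at 65.5 and 70.8 FPKM in H2023 against 297 and 143 FPKM in H460, each with a wide gap between the H460 libraries. LDHA (1745 and 1959.7 FPKM in H2023 against 2593 and 1899 FPKM in H460) and LDHB (872 and 731 FPKM in H2023 against 654 and 521 FPKM in H460) were not called.

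For serine, one-carbon and ATF4-linked genes the counts depended on the libraries used. Of 29 tested, 7 were higher in H2023 and 6 in H460 with all 4 libraries, or 44.8% where 48.8% of all genes were called. Without H460 library 0 the counts were 13 and 2, and without H460 library 1 they were 6 and 18. These counts use the same genes as the full comparison, and either H2023 library left out then gave 0 and 1. With the filter applied anew they were 4 and 2 without H2023 library 0, 5 and 1 without H2023 library 1, 13 and 4 without H460 library 0 and 7 and 19 without H460 library 1. PHGDH, the first enzyme of serine synthesis, was at 36.2 and 23.9 FPKM in H2023 against 79.1 and 41.1 FPKM in H460. PSAT1 was at 78.4 and 61.9 FPKM in H2023 against 108 and 53.5 FPKM in H460. ASNS, asparagine synthetase, was at 31.6 and 22.1 FPKM in H2023 against 62.8 and 23.8 FPKM in H460, and none of the 3 was called. SLC7A5, an amino acid transporter, was higher in H2023, at 694 and 719 FPKM in H2023 against 177 and 127 FPKM in H460 (difference 2.23). NUPR1, a stress-induced chromatin protein, was at 124 and 105 FPKM in H2023 against 14.4 and 0.644 FPKM in H460.

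SMARCA4 and STK11, tumour suppressor genes of lung cancer, were lower in H2023. SMARCA4, the ATPase of SWI/SNF chromatin remodelling complexes (chr19:11071608-11190102), was at 3.64 and 3.95 FPKM in H2023 and 65.1 and 74.04 FPKM in H460, a difference of -3.88 (SE 0.16, limma adjusted p = 6.52e-05). STK11, the kinase LKB1 (chr19:1177557-1228430), was at 0.509 and 1.36 FPKM in H2023 and 12.97 and 20.2 FPKM in H460, a difference of -3.19 (SE 0.31, limma adjusted p = 8.44e-04). SMARCA2, the alternative ATPase of the same complexes, was at 13.6 and 18.5 FPKM in H2023 against 16.7 and 20.8 FPKM in H460 and was not called. No neighbouring gene had a difference as low as these. Of 56 other tested protein-coding genes within 1 Mb of STK11, 17 were higher in H2023 and 8 in H460, with a median of 0.04 and a lowest value of -1.22. Around SMARCA4, 15 of 47 were higher in H2023 and 8 in H460, with a median of 0.20 and a lowest value of -1.26.

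In H460 the tumour suppressor genes of 9p21 were listed at 0. CDKN2A, which encodes p16 and ARF (chr9:21967751-21995300), was at 9.49 and 10.6 FPKM in H2023 and listed at 0 in both H460 libraries. CDKN2B, which encodes p15, was at 10.2 and 8.59 FPKM in H2023 and likewise at 0 in H460. The adjoining gene MTAP, the enzyme that salvages methionine from polyamine synthesis, had the opposite pattern, at 26.6 and 23.9 FPKM in H460 and 1.56 and 0.703 FPKM in H2023 (difference -3.65, limma adjusted p = 2.74e-04). The centres of MTAP and CDKN2A are 111 kb apart. Further out KLHL9 (4.04 and 3.11 FPKM in H2023 against 4.27 and 6.44 FPKM in H460) was not called. FOCAD (4.08 and 3.298 FPKM in H2023 against 7.28 and 4.77 FPKM in H460) was not called either, and the listed interferon genes and DMRTA1 were under 1 FPKM in all 4 libraries. RPS6, a ribosomal protein gene further along the arm, was at 459 and 347 FPKM in H2023 against 1237 and 997 FPKM in H460. Of 13 tested genes of the interval 3 were higher in H2023 and 5 in H460, over omissions 3 and 1 to 3, and 4 and 3 with mitochondrial transcripts left out.

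**Figure D4:**
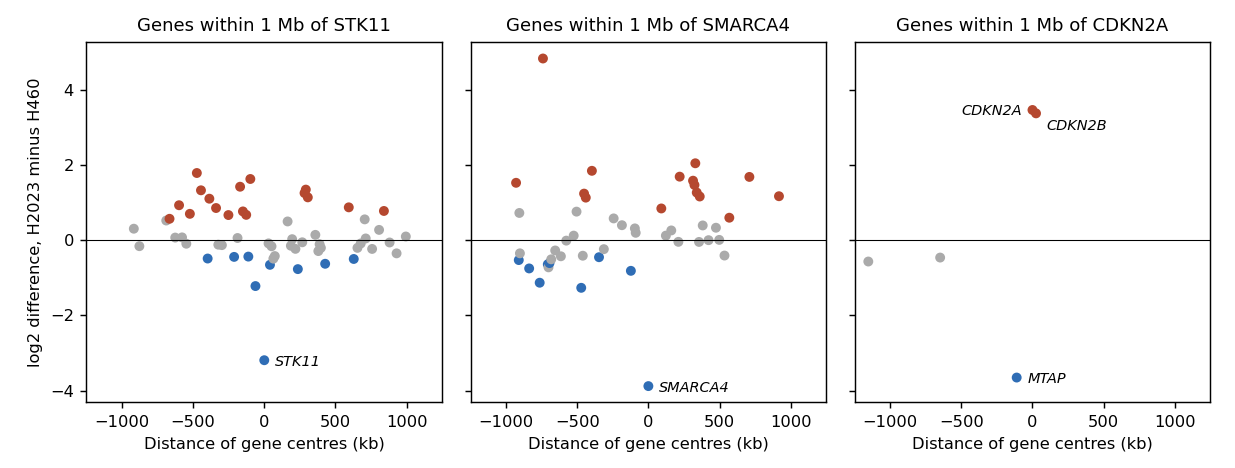
Log2 difference, H2023 minus H460, of tested protein-coding genes against the distance of their centre from that of STK11, SMARCA4 or CDKN2A, in kb, with genes higher in H2023 in red, higher in H460 in blue and not called in grey. STK11 and SMARCA4 lie well below all their neighbours, and CDKN2A and CDKN2B lie above 3 while MTAP, 111 kb away, lies below -3.

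Among 33 tested lung cancer driver genes 8 were higher in H2023 and 15 in H460, or 69.7%. The counts were 8 and 9 with mitochondrial transcripts left out and 6 and 3 between the NRF2 siRNA libraries. Over the 4 omissions of 1 library, the list had 3 to 8 genes higher in H2023 and 3 to 10 in H460. MYC was at 67.7 and 72.9 FPKM in H2023 against 495 and 299 FPKM in H460, a difference of -2.44 (limma adjusted p = 9.25e-04), the opposite sign to the median of its chromosome, 0.48 for chromosome 8. PIK3CA was not called (8.37 and 10.2 FPKM in H2023 against 10.95 and 6.503 FPKM in H460). CDK6, a kinase held back by p16, was at 6.42 and 6.46 FPKM in H2023 against 11.4 and 10.7 FPKM in H460.

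Cancer-testis genes, which in adults are normally transcribed in germ cells, were called in both directions. Of 49 matched, 34 stayed under 1 FPKM in all 4 libraries and 15 were tested, of which 11 were higher in H2023 and 4 in H460. All of them were thus called, but a gene that reached the filter only through the line in which it is high had to differ. With the filter applied anew without either H2023 library, 5 genes were left, of which 1 was higher in H2023 and 3 in H460. MAGEA4 was at 99.03 and 92.2 FPKM in H2023 and listed at 0 in H460, as was MAGEA10, at 21.99 and 29.98 FPKM. MAGEA3 was at 30.1 and 31.3 FPKM in H2023 against 0 and 0.124 FPKM in H460. MAGEA6 was at 28.98 and 28.8 FPKM in H2023 against 0.0417 and 0 FPKM in H460, and since both genes are near-identical their split is uncertain. Leaving out each library in turn gave 9 to 10 genes higher in H2023 and 1 to 4 in H460. PRAME was at 26.97 and 27.5 FPKM in H2023 against 10.3 and 15.5 FPKM in H460. MAGEB2 and MAGEA1 were found in both lines and higher in H460, MAGEB2 at 17.8 and 15.9 FPKM in H2023 against 58.9 and 62.3 FPKM in H460. MAGEA1 was at 13.9 and 12.5 FPKM in H2023 against 37.6 and 50.9 FPKM in H460.

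Imprinted genes, which are transcribed from only the paternal or the maternal copy, were called in both directions. Of 15 tested 7 were higher in H2023 and 5 in H460, and over omissions 4 to 7 and 2 to 4. With a mean of at least 5 FPKM required, 11 were left, 6 higher in H2023 and 4 in H460, with a median of 1.14. SNRPN was at 0.106 and 0.00123 FPKM in H2023 against 27.2 and 21.99 FPKM in H460. SNURF, which shares its transcript and hence reads, was at 0.205 and 0 FPKM in H2023 against 90.4 and 76.4 FPKM in H460. PEG10 was at 245 and 381 FPKM in H2023 against 8.34 and 13.7 FPKM in H460. Its neighbour on chromosome 7, SGCE, was at 34.02 and 42.5 FPKM in H2023 against 0.139 and 0.0985 FPKM in H460, so both genes of that domain were higher in H2023. H19 was at 25.2 and 16.5 FPKM in H2023 against 0.0511 and 0.272 FPKM in H460, while IGF2 beside it was at most 0.494 FPKM.

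A set of genes was transcribed in one line and nearly silent in the other. With both libraries at 5 FPKM or above in one line and both at 0.1 FPKM or below in the other, 92 genes were restricted to H2023, 0.655% of the tested number, and 44 to H460, 0.313%. Of these, 71 and 35 were protein coding and 13 and 7 were long non-coding RNAs. In the NRF2 siRNA libraries 38 and 20 met the same limits. With the limits set on 1 library less, 109 to 141 and 50 to 68 genes met them, the most without H2023 library 1 and without H2023 library 0. After the genes already named, the most abundant protein-coding genes in H2023 were VGLL3 and GTSF1. VGLL3, a partner of TEAD factors, was at 40.7 and 60.2 FPKM and GTSF1, a germ cell factor, at 49.8 and 42.9 FPKM. In H460 the protein-coding genes included FGF13 at 48.2 and 49.3 FPKM, LXN at 39.8 and 48.9 FPKM and CDH13 at 28.3 and 27.7 FPKM. The most abundant restricted gene of any kind in H460 was the long non-coding RNA LINC00824, at 485 and 520 FPKM. Promoters of the restricted genes were described by their CpG pairs. A promoter was counted as CpG-rich if at least 50% of its bases were G or C and it held at least 0.6 of the CpG pairs that its bases would give by chance. Of 55 genes restricted to H2023 with an entry, 41.8% had such a promoter, and of 29 restricted to H460, 41.4%, and of 9793 tested protein-coding genes 82.0%, shares that were not tested against each other. Among all called genes the shares were 74.0% for those higher in H2023 and 83.3% for those higher in H460.

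Differences were not spread evenly over chromosomes. The 458 tested genes of the X chromosome had a median difference of -0.87, with 65.9% higher in H460 and 7.64% higher in H2023, where the shares over all genes were 24.6% and 24.2%. In the NRF2 siRNA libraries the median of the same chromosome was -0.88. Chromosome 19 went the other way, with a median of 0.57 over 984 genes and 49.2% higher in H2023, and 0.45 in the NRF2 siRNA libraries. Chromosome 8 had a median of 0.48, with 44.8% higher in H2023, and chromosome 21 one of 0.39. Chromosomes 14 (-0.48), 5 (-0.46) and 15 (-0.33) were lower in H2023. Within chromosomes, windows of 31 consecutive tested protein-coding genes were taken. The 4 lowest separate windows all lay on the X chromosome, with medians from -1.28 to -1.22, the last from NSDHL to FAM3A with 1 of 31 genes above 0. The 3 highest lay on chromosome 19, the first from ZNF160 to TNNI3 with a median of 1.27 and 30 of 31 genes above 0, and the next highest on chromosome 12 around EMP1, at 1.04. Removing the trend of each library with GC content and transcript length left the medians at -0.83 for the X chromosome, 0.50 for chromosome 19 and 0.48 for chromosome 8. With mitochondrial transcripts left out they were -0.67, 0.76 and 0.67, against 0.16 for all genes. With no filter on low values they were -0.11, 0.17 and 0.07. Copy number was not measured in these libraries, and its part in the result was not tested.

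**Figure D5:**
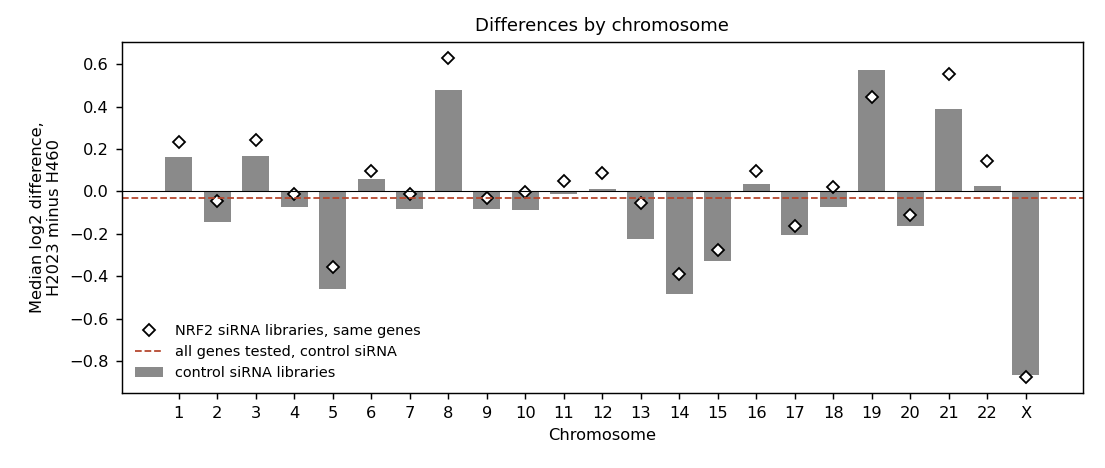
Median log2 difference, H2023 minus H460, of the tested genes of each chromosome in the control siRNA libraries (bars) and of the same genes in the NRF2 siRNA libraries (diamonds), with the median of all tested genes as a dashed line. The X chromosome is lowest at -0.87, chromosomes 19, 8 and 21 are highest, and the diamonds follow the bars.

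Few proliferation genes were called. Of 40 tested 3 were higher in H2023 and 8 in H460, 27.5% against 48.8% of all genes, and the median of -0.15 turned to 0.05 with mitochondrial transcripts left out. The counts then turned to 5 and 1, and between the NRF2 siRNA libraries they were 4 and 0. MKI67, a marker of cycling cells, was at 35.97 and 53.3 FPKM in H2023 against 32.9 and 58.02 FPKM in H460, and its difference was 0.00 (95% interval -0.76 to 0.76). PCNA, the replication clamp, was higher in H460, at 118 and 112 FPKM in H2023 against 145 and 187 FPKM in H460, and PTTG1, securin, led the list at 142 and 175 FPKM in H2023 against 391 and 389 FPKM in H460. Only 4 of the 11 called genes had the same sign with NRF2 siRNA. When single libraries were left out, the counts were 0 to 2 in H2023 and 1 to 5 in H460 with the genes of the full comparison, and 0 to 5 and 1 to 10 with the filter applied anew. The 13 tested genes of mitochondrial DNA gave 0 calls in limma and 1 at an unadjusted p under 0.05, with differences from -0.02 to 0.80 and all 13 lower in library 0 than in library 1 of both lines, with median log2 differences of -0.66 in H2023 and -0.59 in H460. With the replicate number as a block 1 was called, higher in H2023. MT-CO1, for example, was at 5833 and 9612 FPKM in H2023 against 5437 and 7485 FPKM in H460.

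Genes in common use as references were not level between the lines. Of 15 tested, 1 was higher in H2023 and 8 in H460. HPRT1 was at 29.6 and 35.8 FPKM in H2023 against 110.4 and 106 FPKM in H460, a difference of -1.70 (limma adjusted p = 5.49e-04), and PGK1 at 263 and 194 FPKM in H2023 against 732 and 571 FPKM in H460. Both lie on the X chromosome. GUSB was at 18.5 and 20.7 FPKM in H2023 against 49.2 and 37.7 FPKM in H460. GAPDH was at 4020.4 and 3673 FPKM in H2023 against 5008 and 4757 FPKM in H460 (difference -0.34, 95% interval -0.94 to 0.25). ACTB was at 2706 and 2821 FPKM in H2023 against 4775 and 3537 FPKM in H460, and neither was called. Over the 4 omissions of 1 library, the list had 0 genes higher in H2023 and 1 to 6 in H460. With mitochondrial transcripts left out the list's median moved from -0.57 to -0.36 and kept its sign. Between the NRF2 siRNA libraries 2 were called in each direction.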

How the data were processed

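Total RNA of H2023 and H460 cells was polyA-selected, made into strand-specific libraries and sequenced paired-end, according to the study's methods. The deposited values are FPKM per gene, computed by the authors for each library, with no pooling of replicates. The study's methods attribute its FPKM values to TopHat and Cufflinks on hg19. The submitters' processing notes instead name bcl2fastq 2.15.0, cutadapt 1.15, STAR 2.5.3a, SAMtools, Cuffnorm, HTSeq, DESeq2 and R 3.2.0 with hg19 and GRCh37.p13. These 2 sources conflict, and which of them holds for the deposited files could not be settled here. If the lines were scaled in separate runs, a constant shift between lines would follow. Tables of the authors' own DESeq2 comparisons of control and NRF2 siRNA (mean count, log2 fold change, error, p and adjusted p) were not used, and A549 was not analysed here.

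Each file listed 57815 genes, of which 96.055% were given symbols and positions from GENCODE v44lift37 (GRCh37). In the 8 libraries 10142 values at or below 1e-06 were set to 0. Genes with at least 1 FPKM in 2 of the 4 libraries were fitted with limma 3.58.1 (R 4.3.3, moderated test with trend, 2 residual degrees of freedom, two-sided) on log2(FPKM + 1), with Benjamini-Hochberg adjustment over all tested genes and a threshold of 0.05. A fold change on this scale understates that of low genes. With 2 libraries per line, p-values measure the spread between these libraries only. Tables were made with pandas 2.3.3 under Python 3.11.15 and figures with matplotlib 3.10.9. Alternatives changed the pseudocount, filter, scaling, trend, replicate block and libraries. Promoter sequences are from RefSeq (GRCh38.p14).

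The comparison, the 43 gene lists (1396 of 1414 symbols matched) and the tests were chosen with earlier results of these data known. Genes named are the 12 protein-coding genes with the largest called difference in each direction, no overlap between lines and a mean of at least 10 FPKM in the higher line, the 8 most abundant protein-coding genes restricted to each line, and in each list the 4 members with the largest called difference and fixed anchor genes. All other genes named were chosen after their values were seen. Some genes that the rule or the lists hold are not reported here, although they stay in the fit and in the counts.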

Additional observations from a re-analysis of the deposited data

Results flagged for a closer look

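SCARNA17, a small Cajal body RNA of 144 bases, was the only gene of 13555 whose difference between the lines was itself different in the control and the NRF2 siRNA libraries by limma (adjusted p = 0.0258), whereas 2316 genes had an unadjusted p under 0.05. In the control libraries it was listed at 0 in both H2023 libraries and at 3.21 and 7.59 FPKM in H460, a log2 difference of -2.59. With NRF2 siRNA it was at 6.32 and 6.76 FPKM in H2023 and listed at 0 in both H460 libraries, a log2 difference of 2.91. The difference of these differences was -5.50 (SE 0.45). Each group thus holds both of its libraries at 0 or both above it, and the number of reads behind these values is unknown. All these libraries were made from polyA-selected RNA. How reliably an RNA of 144 bases was captured in them was not tested, so its values may not reflect its level in the cells.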

How the results depend on the processing

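Of the 248 genes chosen for description, 209 were called. All 209 kept direction and call under median ratio scaling and with the replicate number as a block, 208 with a pseudocount of 0.1, 207 without the variance trend, 205 with the GC content and length trend removed, 199 with mitochondrial transcripts left out, 189 in a fit of all 8 libraries and 152 with no filter on low values. With a fixed set of genes 134 and 139 did so without H2023 library 0 or 1, and 200 and 195 without H460 library 0 or 1. None of the 209 changed direction under an alternative in which it was tested. MAFK, which was not called (-0.02), had a difference of 0.63 without H460 library 0 and -0.67 without H460 library 1. Alternatives with the trend removed, or with single libraries left out of a fixed set of genes, were chosen after seeing the data. The genes called higher in H2023 numbered 1978 with a mean of at least 5 FPKM required, and those higher in H460 numbered 2018 with no filter. Leaving out 1 library and filtering anew gave 1204 to 3260 and 1961 to 3092, and with a fixed set of genes 1259, 1299, 2748 and 2881 higher in H2023 and 722, 732, 2425 and 2989 higher in H460, in the order H2023 libraries 0 and 1 and H460 libraries 0 and 1. Between the NRF2 siRNA libraries, where 1548 and 1251 genes were called, a mean of at least 5 FPKM gave 769 and 757 and the fit of all 8 libraries 2505 and 2190. With no filter limma gave 0 and 0 there, with 6931 of 31488 genes at an unadjusted p under 0.05. Single omissions gave 278 to 1039 and 445 to 579, and in the same order in the fixed set of genes 589, 600, 567 and 472 higher in H2023 and 158, 147, 629 and 523 in H460. The median of the X chromosome was -0.11 with no filter and -0.67 with mitochondrial transcripts left out. For chromosome 19 these medians were 0.17 and 0.76, with 0.43 at a mean of at least 5 FPKM, and 0.42 to 0.60 over single omissions. For chromosome 8 they were 0.0736 and 0.67, and 0.34 to 0.55 over omissions. Genes restricted to a line numbered 109 to 141 for H2023 and 50 to 68 for H460 over omissions. The cause of these changes was not tested, except that no filter adds genes near 0 and an omission leaves 1 library in a group, assumed to vary like the other line.

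Libraries with the same number share it without a stated common origin. Across genes, deviations of same-numbered control libraries from their line's mean correlated at 0.0313, and the main fit did not pair them. This correlation cannot show whether some genes share a difference by number. Mitochondrial transcripts took more of library 1 in both lines, 18.1% against 11.97% in H2023 and 13.1% against 8.56% in H460. Whether the number marks a shared preparation was not tested. With the replicate block 3472 genes were higher in H2023 and 3579 in H460. For the NRF2 siRNA libraries, where the number marks the siRNA, the correlation was 0.372 and the block gave 2585 and 2184 calls. With 2 libraries per line the spread is poorly known, and without read counts the depth behind a low FPKM value is unknown.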

Other observations

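Of 30 tested WNT pathway genes 15 were higher in H2023 and 7 in H460, or 73.3%, with a median difference of 0.80. With the filter applied anew without an H2023 library, 22 were left and the median was 0.15 or 0.16. The ligand WNT7B was at 28.1 and 27.8 FPKM in H2023 against 0.00118 and 0 FPKM in H460. RNF43, a ligase that removes WNT receptors, was at 9.16 and 8.96 FPKM in H2023 against 0.04000 and 0.192 FPKM in H460. AXIN2, a feedback gene of the pathway, was at 4.51 and 3.71 FPKM in H2023 against 0.851 and 0.478 FPKM in H460. DKK1, a secreted antagonist, was at 9.63 and 10.6 FPKM in H2023 against 1.34 and 0.313 FPKM in H460. With 1 library left out at a time, 7 to 15 genes of the list were higher in H2023 and 2 to 4 in H460. Of 39 tested TGF-beta and BMP pathway genes 18 were higher in H2023 and 7 in H460, and of 34 left with that filter 9 or 11 and 5 or 6. TGFBR2, a receptor kinase that binds the ligand, was at 46.8 and 50.9 FPKM in H2023 against 2.94 and 2.83 FPKM in H460, and INHBB, an activin subunit, at 21.97 and 14.8 FPKM in H2023 against 0 and 0.0429 FPKM in H460. Leaving out each library in turn gave 5 to 17 genes higher in H2023 and 1 to 8 in H460.

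Readouts of YAP and MAPK signalling, drug exporters and iron genes were called in part. YAP1 was at 24.6 and 22.4 FPKM in H2023 against 22.9 and 22.7 FPKM in H460 and was not called (difference 0.04, 95% interval -0.31 to 0.39). Of 27 tested YAP and TEAD targets and partners 4 were higher in H2023 and 7 in H460, and their median turned from -0.19 to 0.01 with mitochondrial transcripts left out. The counts were then 6 in each line, and between the NRF2 siRNA libraries 8 and 2. When single libraries were left out, the counts were 3 to 4 in H2023 and 1 to 8 in H460. CCN2, a common readout, was at 3.29 and 2.84 FPKM in H2023 against 14.3 and 8.71 FPKM in H460, whereas NT5E, the ecto-nucleotidase CD73, was at 42.9 and 73.7 FPKM in H2023 against 8.502 and 10.5 FPKM in H460. Of 19 MAPK feedback genes 1 was higher in H2023 and 6 in H460. Over the 4 omissions of 1 library, the list had 0 to 3 genes higher in H2023 and 2 to 9 in H460. Of the 19 genes 18 were higher in H460 library 0 than in library 1, with a median log2 difference of 0.44, and without H460 library 0 the counts were 3 and 6, or 3 and 5 of 17 with the filter applied anew. ETV4, an ETS factor, was at 43.2 and 33.3 FPKM in H2023 against 198 and 151 FPKM in H460, and DUSP6, the ERK phosphatase, was not called (26.8 and 23.4 FPKM in H2023 against 34.5 and 32.00 FPKM in H460). Of 24 ABC transporters 8 were higher in H2023 and 5 in H460, or 54.2% where 48.8% of all genes were called. Between the NRF2 siRNA libraries the counts were 2 and 4. With 1 library left out at a time, 1 to 8 genes of the list were higher in H2023 and 2 to 5 in H460. The multidrug exporter ABCB1 was at 0 FPKM in both H2023 libraries against 4.601 and 3.58 FPKM in H460, and ABCC1, an NRF2 target, was not called (60.9 and 63.97 FPKM in H2023 against 48.8 and 54.9 FPKM in H460). SLC40A1, the iron exporter ferroportin, was at 85.4 and 70.1 FPKM in H2023 against 5.41 and 7.76 FPKM in H460 (difference 3.39), while the transferrin receptor TFRC was not called (116 and 84.7 FPKM in H2023 against 101 and 90.4 FPKM in H460). Of 20 tested lysosome, iron and heme genes 6 were higher in H2023 and 3 in H460, or 45.0%. Leaving out each library in turn gave 2 to 4 genes higher in H2023 and 0 to 3 in H460. Of 13 tested stem cell markers 5 were higher in each line, and over omissions 4 to 5 in H2023 and 2 to 5 in H460.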
